A study of Cavia porcellus with 35 samples.

Results

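GABA-A receptors are chloride channels built from 5 subunits around a central pore, most often alpha and beta subunits together with a gamma or delta subunit. They carry most fast inhibition in the adult cortex, and the alpha subunit sets where on the neuron a receptor sits and which benzodiazepines it answers to. Neurosteroids made from progesterone and related hormones enhance these receptors. The genes described here were a list of 7 subunit symbols (GABRA2, GABRA3, GABRA4, GABRA5, GABRB1, GABRB2 and GABRG1) looked up, ignoring case, in 4 tables of read counts. Of these, 6 were found in all 4 tables, which together listed 12100 genes, 10949 of them in every table. GABRB1 was not analysed here. All 6 genes passed the filter on low counts in each table.

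The samples were punches of the medial prefrontal cortex (mPFC) of 35 guinea pigs at postnatal day 40, 1 library per animal. F1 animals were born to mothers given the synthetic glucocorticoid (sGC) betamethasone (the group named Beta) or saline (Control) late in pregnancy. F2 and F3 animals came from F1 and F2 males of those lines mated with untreated females, so that only F1 animals were exposed as fetuses. There were 4 control and 4 sGC females in each of F1, F2 and F3, and 5 control and 6 sGC F1 males. The labels name neither a strain nor a transgene, and F2 and F3 males were not analysed here. Each table was deposited and is analysed as its own set, so a difference between generations or between females and males cannot be told apart from a difference between tables, and p-values measure the spread between the animals of a group.

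Library totals ran from 12819964 to 19551079 counts in females and from 25697953 to 31763585 counts in males. The protocol text of the labels names the paraventricular nucleus of the hypothalamus, whereas the source field names the prefrontal cortex. Hypothalamic markers summed to between 7.10 and 20.5 CPM (the gene's count scaled to the total of the library) in an animal, with TRH and OTP absent from the tables, and 6 of 8 markers of cortical excitatory neurons were listed. Tissue markers differed between control and sGC animals. In F1 females striatal markers, 9 of 11 listed, summed to 2947, 670, 1028 and 2741 CPM in control animals 1 to 4. They summed to 307 to 711 CPM in sGC animals, and 6 of the 9 fell. In F3 females the same 9 summed to 397, 783, 1222 and 617 CPM in control animals 1 to 4. F3 sGC animals 1 to 4 had 321, 568, 259 and 515 CPM. All 9 differences were negative in F3 females, none with an FDR under 0.05. SLC17A7, the vesicular glutamate transporter of cortical excitatory neurons, was at 989, 317, 171 and 240 CPM in F1 control females and at 1313, 1234, 884 and 3575 CPM in sGC females (log2 difference 2.03, FDR = 0.0571). In F1 males, all 8 oligodendrocyte markers listed (of 10, without MBP and MOBP) rose, from a sum of 3605 to 6882 CPM in controls to 7727 to 13239 CPM in sGC animals. In F1 females 4 of 6 microglia markers tested also fell (C1QB, CSF1R, CX3CR1 and P2RY12). All 7 microglia markers listed summed to 241 to 293 CPM in the control group and 180 to 204 CPM after sGC. In the same females 3 of 9 astrocyte markers fell (ALDH1L1, AQP4 and GJA1). All values below for F1 females, F3 females and F1 males compare these same animals. The part of the striatal and glial markers in the differences was not tested.

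Among F1 females, 2 of the 6 subunit genes rose with sGC (GABRA3 and GABRB2) and none fell. A gene is said to have risen or fallen where the false discovery rate (FDR) of edgeR's quasi-likelihood test, adjusted over all genes tested in that table, was under 0.05, which 16.5% of all genes reached (9.21% upward and 7.33% downward). The count was 1 without control animal 3 or without sGC animal 1, in both cases GABRA3 alone, while the share of all genes called was 5.42% and 7.32% in these fits. It was 3 without control animal 1, without control animal 2 and without control animals 1 and 4 (the pair with the highest striatal sums). In these fits 18.7%, 10.8% and 15.1% of all genes were called. The count was also 3 (with GABRG1, which fell) by the likelihood ratio test, DESeq2, upper quartile normalization or a single fit of all 8 groups. Of all genes, 18.6%, 21.1%, 16.8% and 30.4% were called by these alternatives, in that order. None of the 6 genes passed the quasi-likelihood test in F2 females, where 0.278% of all genes did, or in F3 females, where 1.34% did. With edgeR's likelihood ratio test or DESeq2, 2 genes passed in F2 females (GABRA2 and GABRA3) and 1 in F3 females (GABRA3). These tests called 4.8% and 4.16% of all genes in F2 females and 5.39% and 5.36% in F3 females. Leaving out 1 animal gave 1 gene in F2 females without control animal 1 or sGC animal 2, where 2.19% and 4.36% of all genes passed. In F3 females it gave 3 genes without control animal 1, where 5.22% of all genes passed. It gave 1 gene without F3 sGC animal 4, where 0.375% did.

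In F1 males all 6 differences were negative and 1 gene fell, GABRA4, against 9.22% of all genes called (3.48% downward). The likelihood ratio test and DESeq2 called 5 genes in males, all but GABRG1, and 12.2% and 13.5% of all genes. The male count was 4 without control animal 5, where 9% of all genes were called. It was 2 without control animal 2 or 4 or sGC animal 5 or 6. In these fits 8.15%, 5.87%, 6.67% and 14% of all genes were called, in that order. GABRA4 was called each time. At an unadjusted p under 0.05, the quasi-likelihood test called 4, 3, 3 and 6 of the genes in F1, F2 and F3 females and F1 males, against 34.2%, 16.1%, 17.3% and 25.2% of all genes. The median log2 difference of the 6 genes was 0.21, -0.19, 0.03 and -0.26 in those tables, and the median of all genes tested was -0.03, 0.0076, -0.0054 and -7.26e-05.

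**Figure D1:**
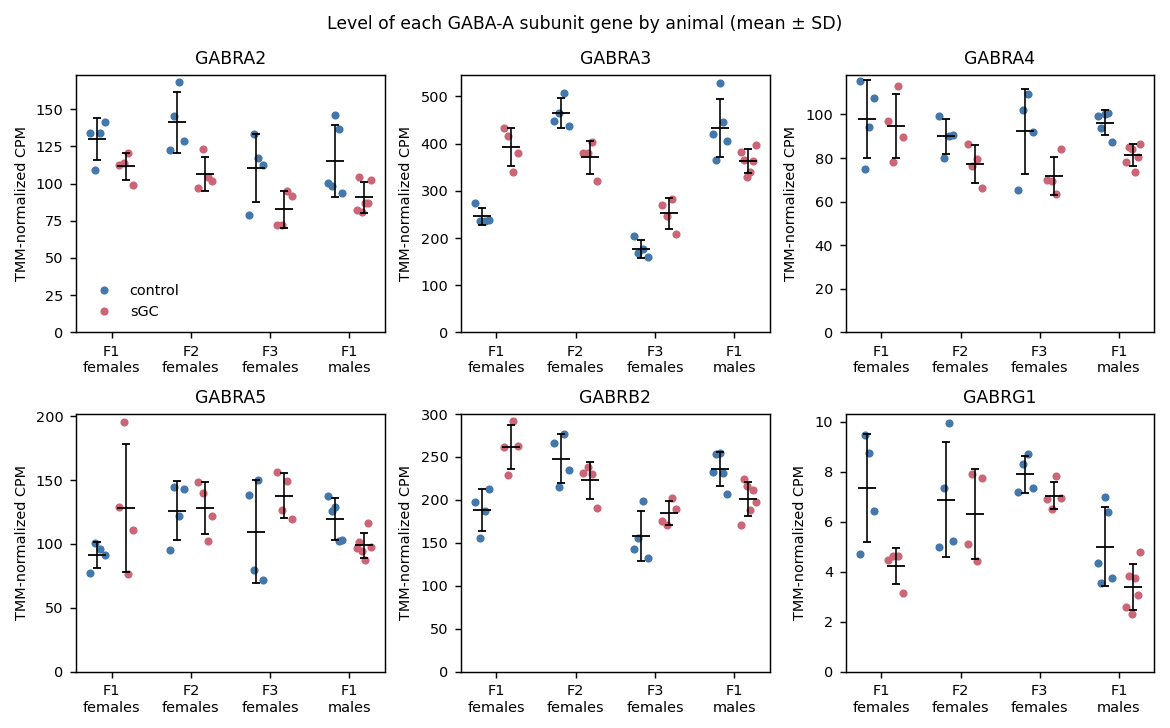
Level of each subunit gene in each animal, in TMM-normalized CPM (vertical axes, from 0), with control animals in blue and sGC animals in red for F1, F2 and F3 females and F1 males. Horizontal bars are group means and error bars are SDs (n = 4, or 5 control and 6 sGC males). For GABRA3, all sGC animals lay above all controls in F1 and F3 females and below them in F2 females.

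GABRA3 encodes the alpha3 subunit, which is abundant in the developing cortex and in monoamine neurons. The 4 F1 control females had 274, 236, 236 and 237 CPM and the 4 sGC females 434, 417, 341 and 380.2 CPM. No sGC female overlapped a control, as for 23.2% of all genes in F1 females in either direction, and control animal 1, at 274 CPM, stood above the other controls. The log2 difference was 0.68 (SE 0.09, FDR = 0.00390), and it stayed between 0.63 and 0.75 when each animal was left out in turn, passing in 8 of 8 fits. Without control animals 1 and 4 it was 0.76 (FDR = 0.0129). The controls with the lowest SLC17A7 (171 to 317 CPM) were those at 236 to 237 CPM of GABRA3. Control animal 1 and sGC animal 3 had similar SLC17A7 (989 and 884 CPM), and their GABRA3 was 274 and 341 CPM. What part the makeup of the punches had in the GABRA3 difference was not tested, and in such bulk tissue fewer cells of a type cannot be told apart from less RNA per cell.

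In F2 females the order of GABRA3 was the opposite. Controls had 447, 465, 508 and 438 CPM and sGC animals 379.9, 380.2, 403 and 321 CPM, so that every sGC animal was under every control. The log2 difference of -0.32 (SE 0.08) did not pass (FDR = 0.0811 by the quasi-likelihood test). Groups were separated in that direction for 4.02% of all genes of the table. SLC17A7 ran from 1275 to 1358 CPM in F2 controls and from 1245 to 1503 CPM in sGC animals. Other markers differed on average between these groups. The sum of 6 upper-layer markers was 512 ± 75.1 CPM for controls against 332 ± 77.0 CPM for sGC, with all 6 differences negative. The sum of 6 deep-layer markers was 273 ± 31.2 and 384 ± 71.8 CPM, and that of the oligodendrocyte markers 3918 ± 865 and 8298 ± 2833 CPM (SD, n = 4). No gene of these 3 lists passed in F2 females, and their part in the GABRA3 difference was not tested.

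F3 controls held 204, 168, 177 and 159 CPM of GABRA3 and F3 sGC females 271, 246, 283 and 209 CPM. The highest control lay just under the lowest sGC animal, and 5.95% of all genes had groups separated in that direction. With a log2 difference of 0.51 (SE 0.11) the gene was at the edge of the threshold (FDR = 0.0526), and it passed in 2 of 8 fits that left out an animal, without control animal 1 (FDR = 0.0146) and without sGC animal 4 (FDR = 0.0430). SLC17A7 was higher in every F3 sGC animal (933 to 1169 CPM) than in any control (467 to 812 CPM), with an FDR of 0.0780. Striatal sums were 755 ± 349 CPM in F3 controls and 416 ± 149 CPM in F3 sGC females (SD, n = 4), with overlap. The part of SLC17A7 and of the striatal markers in the GABRA3 difference was not tested.

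Control F1 males had 421, 364, 528, 445 and 406 CPM of GABRA3. The 6 sGC males ran from 329 to 398 CPM with a median of 364 CPM, overlapping the controls. The log2 difference was -0.25 (SE 0.08, FDR = 0.0664). SLC17A7 was at 1330 to 1613 CPM in control and 1357 to 1465 CPM in sGC males.

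**Figure D2:**
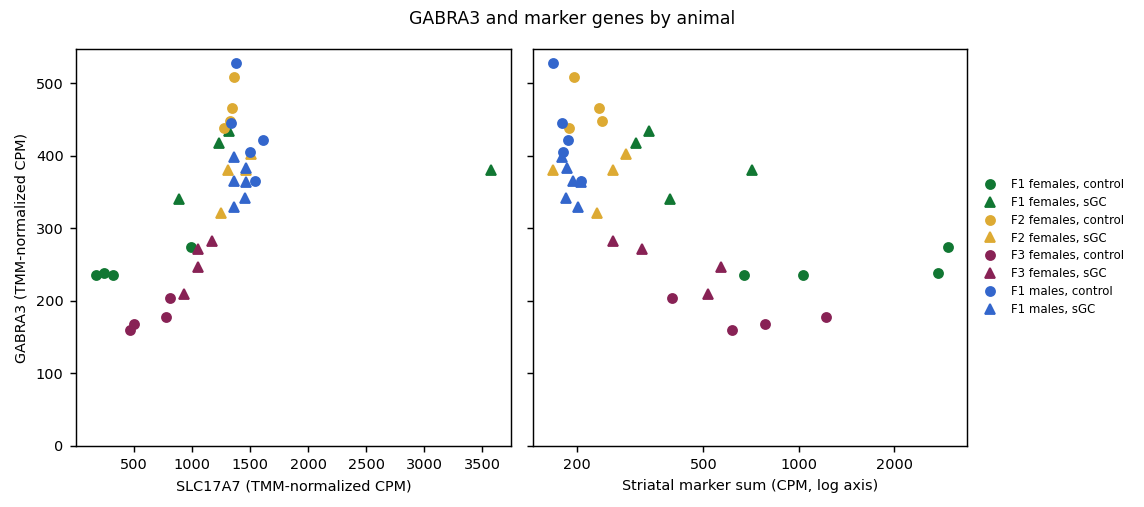
GABRA3 in TMM-normalized CPM (vertical axes) against SLC17A7 (left, CPM) and against the summed striatal markers (right, CPM, log axis), with 1 point per animal, circles for controls, triangles for sGC animals and a colour per table. The striatal sum held 9 markers in F1 and F3 females, 7 in F2 females and 8 in F1 males, so sums of different tables are not alike. The 3 F1 control females with SLC17A7 at 171 to 317 CPM had GABRA3 at 236 to 237 CPM, and F2 females and F1 males lay close together in SLC17A7 while GABRA3 ran from 321 to 528 CPM.

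GABRA2 encodes the alpha2 subunit, found at synapses on the axon initial segment of cortical pyramidal neurons. Its level was lower on average in sGC than in control animals in all 4 tables, and in none did it pass. F1 control females had 134, 109, 134 and 142 CPM, and F1 sGC females 113, 114, 121 and 99.3 CPM. Control animal 2 lay within the sGC range (log2 difference -0.22, SE 0.09, FDR = 0.127), and without that animal the difference was -0.29 with an FDR of 0.0412. F2 controls held 122, 145, 168 and 129 CPM against 96.9, 123, 104 and 102 CPM in F2 sGC females, a log2 difference of -0.41 (SE 0.11, FDR = 0.0968) with an overlap of 1 sGC animal. It passed without control animal 1 (FDR = 0.0477) or without sGC animal 2 (FDR = 0.0247).

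F3 controls had 78.9, 133, 117 and 112 CPM of GABRA2 and F3 sGC females 72.0, 72.1, 95.2 and 91.8 CPM. Control animal 1, at 78.9 CPM, lay below 2 of the sGC females. The log2 difference was -0.42 (SE 0.16, FDR = 0.213), and without control animal 1 it was -0.55 (FDR = 0.0281). That animal had the largest oligodendrocyte marker sum of its group, 8270 CPM against a group minimum of 3130 CPM. Control F1 males were at 101, 98.3, 146, 137 and 94.0 CPM, and sGC males at 81.2 to 105 CPM with a median of 86.9 CPM. These groups overlapped, with a log2 difference of -0.34 (SE 0.12, FDR = 0.0882).

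GABRA4 encodes the alpha4 subunit, which joins delta in receptors outside the synapse that respond strongly to neurosteroids. The 5 control males had 99.3, 93.9, 100.01, 101 and 87.5 CPM, and the 6 sGC males 73.7 to 86.6 CPM with a median of 82.4 CPM. The lowest control was above the highest sGC male, which 2.04% of all genes showed in that direction in males. GABRA4 fell by 0.24 on the log2 scale (SE 0.05, FDR = 0.0124) and passed in all 11 fits that left out 1 male. Oligodendrocyte markers were higher in every sGC male than in any control, and their part in this difference was not tested. In a single fit of all 8 groups the same difference had an FDR of 0.178.

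F1 control females had 115, 74.8, 94.3 and 107 CPM of GABRA4 and F1 sGC females 97.2, 78.4, 113 and 89.6 CPM. These ranges overlapped almost wholly (log2 difference -0.05, 95% confidence interval -0.39 to 0.28), and the sign turned without control animals 1 and 4 (0.19, FDR = 0.447), without control animal 1 alone or without sGC animal 2. F2 controls had 99.3, 79.8, 90.0 and 90.5 CPM against 86.6, 76.4, 79.8 and 66.2 CPM in F2 sGC females (log2 difference -0.22, SE 0.09, FDR = 0.273). In F3 females the controls were at 65.3, 102, 109 and 91.8 CPM and sGC animals at 70.0, 69.4, 63.4 and 84.0 CPM. Control animal 1 was again the low one, and the log2 difference went from -0.36 (SE 0.15, FDR = 0.256) to -0.50 (FDR = 0.0231) without it.

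GABRA5 encodes the alpha5 subunit, known for tonic inhibition outside synapses. F1 control females had 77.4, 101, 96.3 and 91.6 CPM, and F1 sGC females 129, 196, 76.3 and 111 CPM. One sGC female was below every control and another, at 196 CPM, was far above their mean of 91.6 CPM, so that a log2 difference of 0.48 had an SE of 0.24 and did not pass (FDR = 0.195). F2 females overlapped throughout, with controls at 95.2, 144, 122 and 143 CPM and sGC animals at 149, 140.1, 102 and 122 CPM (log2 difference 0.02, 95% confidence interval -0.29 to 0.34). The F3 controls fell into a low and a high pair (138, 79.2, 149.8 and 71.4 CPM), and F3 sGC females had 156, 126, 149 and 119.6 CPM (log2 difference 0.33, SE 0.23, FDR = 0.507). Control F1 males had 138, 126, 129, 102 and 103 CPM, and sGC males 87.4 to 116 CPM with a median of 97.0 CPM. The male log2 difference was -0.27 (SE 0.09, FDR = 0.0691).

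GABRB2 encodes the beta2 subunit, which is part of the commonest cortical receptor. F1 control females had 197, 156, 187 and 213 CPM and F1 sGC females 262, 229, 292 and 263 CPM. Every sGC female was above every control, and groups did not overlap for 23.2% of all genes in F1 females in either direction. The log2 difference was 0.47 (SE 0.10, FDR = 0.0203). It passed in 6 of 8 fits with 1 animal left out, and had an FDR of 0.0593 without control animal 3 and of 0.0550 without sGC animal 1. It was 0.63 (FDR = 0.0195) without control animals 1 and 4. Microglia sums were lower in every sGC female than in any control, and their part and that of the striatal markers were not tested.

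F2 controls had 267, 215, 276 and 235 CPM of GABRB2 and F2 sGC females 231, 239, 231 and 191 CPM, which overlapped (log2 difference -0.16, SE 0.09, FDR = 0.461). F3 controls had 143, 156, 199 and 132 CPM and F3 sGC females 176, 171, 203 and 189 CPM, with 1 control inside the sGC range (log2 difference 0.23, SE 0.12, FDR = 0.367). Control males were at 232, 254, 255, 231 and 207 CPM, and sGC males at 171 to 224 CPM with a median of 205 CPM. The male difference of -0.23 (SE 0.07) had an FDR of 0.0672.

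GABRG1 encodes the gamma1 subunit, a minor gamma subunit in cortex. Its counts were the lowest of the 6, at 45 to 198 reads in a library, so depth limits it most. F1 control females had 4.73, 9.48, 8.75 and 6.44 CPM, and F1 sGC females 4.49, 4.62, 4.64 and 3.15 CPM. The lowest control (4.73 CPM) lay barely above the highest sGC animal (4.64 CPM), in a table where 23.2% of all genes had groups without overlap. The log2 difference of -0.79 (SE 0.24) missed the threshold (FDR = 0.0512), and was -0.94 (FDR = 0.0176) without control animal 1 and -1.08 (FDR = 0.0180) without control animals 1 and 4. In F2 females controls had 4.98, 7.34, 9.94 and 5.23 CPM and sGC animals 5.12, 7.91, 4.44 and 7.77 CPM, without separation (log2 difference -0.13, SE 0.25, FDR = 0.851). F3 controls were at 7.20, 8.32, 8.73 and 7.37 CPM and F3 sGC females at 6.91, 6.53, 7.83 and 6.95 CPM (log2 difference -0.16, SE 0.11, FDR = 0.481). Control males had 4.37, 3.55, 6.99, 6.39 and 3.74 CPM, and sGC males 2.31 to 4.78 CPM with a median of 3.41 CPM (log2 difference -0.57, SE 0.22, FDR = 0.126).

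**Figure D3:**
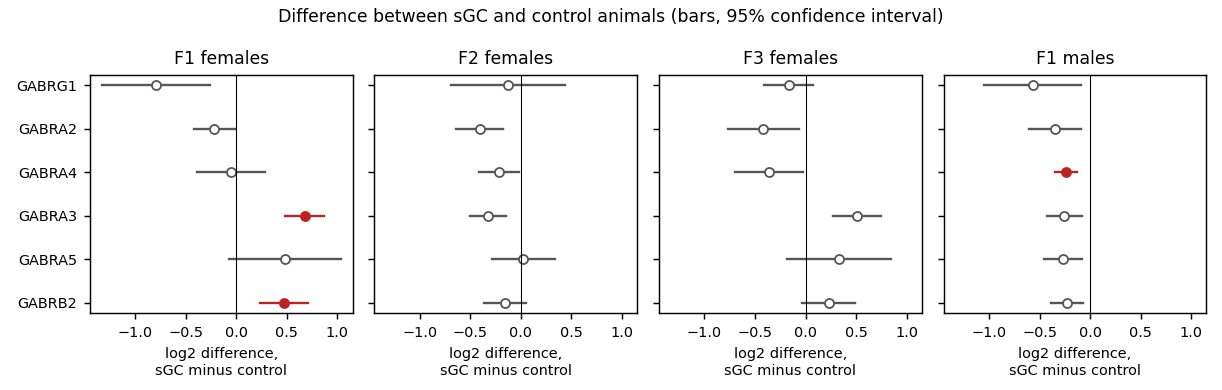
Log2 difference between sGC and control animals (horizontal axis) with its 95% confidence interval for the 6 subunit genes, in F1, F2 and F3 females and F1 males. Filled red symbols have an FDR under 0.05. GABRA3 (0.68) and GABRB2 (0.47) are right of 0 and filled in F1 females, and GABRA4 (-0.24) is left of 0 and filled in F1 males.

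Whether the sGC effect differed between sexes or generations was tested as an interaction, the sGC minus control difference of the second table minus that of the first. Between F1 females and F1 males, 3 of the 6 genes passed, where 31.7% of all genes did. The interaction was -0.94 for GABRA3 (SE 0.13, FDR = 7.47e-05), -0.71 for GABRB2 (SE 0.13, FDR = 0.000730) and -0.76 for GABRA5 (SE 0.25, FDR = 0.0247), that is, the sGC effect was lower in the table of males. Sex and table cannot be told apart here, and the male libraries were the deeper ones. The GABRA5 interaction was lost without F1 sGC female 2 (-0.48, FDR = 0.0580), the animal at 196 CPM, and without F1 control females 1 and 4 (-0.66, FDR = 0.0921). GABRA4, GABRA2 and GABRG1 had interactions of -0.20 (FDR = 0.333), -0.13 (FDR = 0.594) and 0.21 (FDR = 0.680).

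Between F1 and F2 females, GABRA3 (interaction -1.01, SE 0.12, FDR = 0.000730) and GABRB2 (-0.64, SE 0.15, FDR = 0.0153) passed, 2 of 6 genes against 13.8% of all genes. Both comparisons use the same F1 females, so they are not separate evidence. GABRA3 and GABRB2 passed both interactions in every fit that left out an animal. None of the 6 passed between F1 and F3 females, where 0.0981% of all genes did; the F1 to F3 interaction of GABRA3 was -0.19 with a 95% confidence interval of -0.49 to 0.12. Without F1 control females 1 and 4, GABRG1 passed there (0.92, FDR = 0.0326), as did 3.29% of all genes. Between F2 and F3 females, where 0.0180% of all genes passed, GABRA3 had an interaction of 0.83 (SE 0.14, FDR = 0.0564) and the other 5 genes had FDRs of 0.402 to 0.988. Without F3 control animal 1 its FDR was 0.0118, and without F3 sGC animal 4 it was 0.0134.

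The alpha subunits GABRA2 to GABRA5 were also compared as shares of their summed reads in each animal, which removes any scaling of the library. Reads are not corrected for transcript length, so only the same gene's share was compared between groups. The 4 shares sum to the whole, so a share also falls where another of the 4 genes rises. GABRA3 made up 45.6%, 45.2%, 42.1% and 41.1% of these reads in F1 control females and 56.1%, 51.8%, 52.3% and 55.9% in F1 sGC females, without overlap. GABRA2 made up 22.9% ± 1.58 in these controls and 15.5% ± 2.07 in sGC animals (SD, n = 4), also without overlap, while its CPM overlapped and did not pass and the GABRA3 in the denominator rose. In F3 females the share of GABRA3 was 36.3% ± 4.18 in controls and 46.2% ± 3.17 in sGC animals (SD, n = 4), with control animal 1 (41.9%) above sGC animal 4 (41.4%). In F3 females the share of GABRA2 was 22.7% ± 5.12 and 15.3% ± 2.43.

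In F2 females the GABRA5 share was 15.3% ± 2.66 in controls and 18.8% ± 2.68 in sGC animals (SD, n = 4). GABRA3 took 56.6% ± 1.67 in F2 controls and 54.3% ± 2.78 in F2 sGC females, and 56.6% ± 2.21 in control males (n = 5) and 57.2% ± 1.65 in sGC males (n = 6). In males GABRA2 took 14.98% ± 1.77 and 14.3% ± 1.13, and GABRA4 12.7% ± 0.992 and 12.9% ± 0.763.

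**Figure D4:**
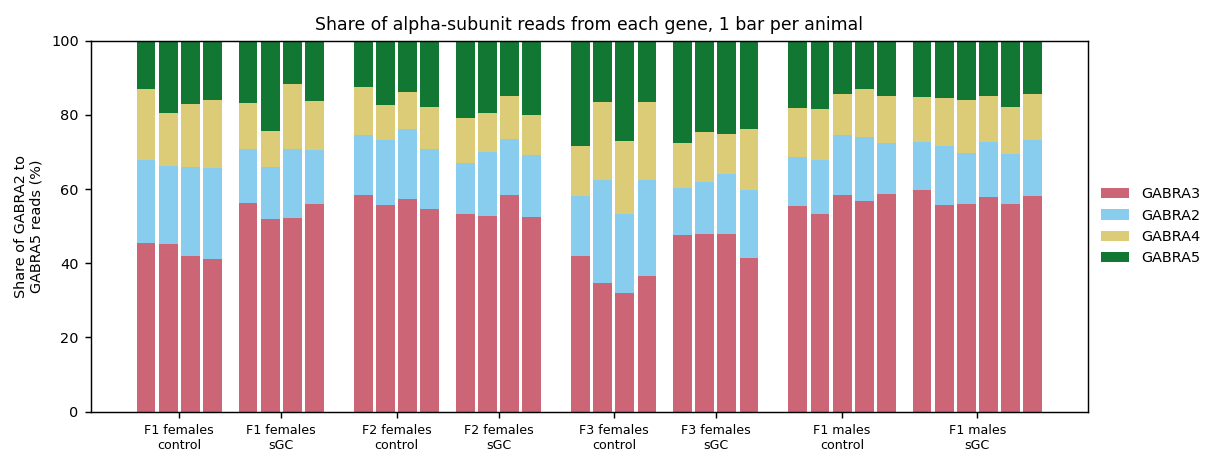
Share of the summed reads of GABRA2, GABRA3, GABRA4 and GABRA5 that came from each gene (vertical axis, percent), with 1 bar per animal and animals grouped by table and treatment. GABRA3 takes 41.1% to 45.6% in F1 control females and 51.8% to 56.1% in F1 sGC females, and at least 52.6% in each F2 female and F1 male.

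Levels across the 8 groups were ordered by mean CPM as a description, since each table was normalized on its own. GABRA3 ran from 465 ± 31.1 CPM in F2 controls, through control males (433 ± 60.8 CPM), F1 sGC females (393 ± 41.3 CPM), F2 sGC females (371 ± 34.8 CPM) and sGC males (363 ± 25.4 CPM), to F3 sGC females (252 ± 32.6 CPM), F1 control females (246 ± 18.8 CPM) and F3 controls (177 ± 19.5 CPM). Neighbours in this order overlapped except sGC males and F3 sGC females, and F1 and F3 control females. GABRB2 was highest in F1 sGC females (261 ± 25.8 CPM) and lowest in F3 controls (158 ± 29.2 CPM). GABRA2 ran from 141 ± 20.5 CPM in F2 controls to 82.8 ± 12.5 CPM in F3 sGC females, and GABRA4 from 98.0 ± 17.7 CPM in F1 control females to 71.7 ± 8.72 CPM in F3 sGC females. GABRA5 ran from 138 ± 17.6 CPM in F3 sGC females to 91.6 ± 10.2 CPM in F1 control females, and GABRG1 from 7.91 ± 0.740 CPM in F3 controls to 3.38 ± 0.914 CPM in sGC males. For these 5 genes every pair of neighbouring groups overlapped. The tables also differed in single genes outside the receptor family. ESAM, an endothelial adhesion gene, had control means of 19.1, 971, 14.4 and 1106 CPM in F1, F2 and F3 females and F1 males, whereas FLT1, another endothelial marker, had 127, 144, 129 and 123 CPM.

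The variation between animals of the same group was examined as the deviation of each animal's log2 CPM from its group mean, over all 35 animals. Of 15 pairs of the 6 genes, 2 correlated with an FDR under 0.05 over the pairs (permutation within groups, 100000 permutations). GABRA4 and GABRB2 had Pearson's r of 0.66 (permutation p = 0.00066, FDR = 0.00495) and Spearman's rho of 0.62 (p = 0.00065, FDR = 0.0051), with r of 0.94, 0.79, 0.46 and 0.62 within F1, F2 and F3 females and F1 males. Without the 2 animals farthest from the median of GABRA4, r was 0.63. GABRA2 and GABRG1 had r of 0.60 (permutation p = 0.00032, FDR = 0.0048) and rho of 0.59 (p = 0.00068, FDR = 0.0051), and r of 0.59 without 2 animals. This relation was not present within F1 females (r = -0.13), whereas r was 0.82, 0.74 and 0.91 in F2 females, F3 females and F1 males. GABRA3 correlated with none of the other 5 at that threshold, its strongest r being 0.39 with GABRA5 (FDR = 0.136).

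Each gene was then set against the summed markers of 4 cell types, 24 relations chosen after the data had been seen. GABRA2 deviated opposite to the oligodendrocyte sum, with r = -0.72 (permutation p = 2e-05, FDR = 0.00048) and rho = -0.73 (p = 4e-05, FDR = 0.00096). It held within each table (r = -0.65, -0.64, -0.78 and -0.95 in F1, F2 and F3 females and F1 males), and r was -0.76 without the 2 farthest animals. Oligodendrocyte sums were also higher in sGC than in control animals in F1 males and on average in F2 females (8298 ± 2833 against 3918 ± 865 CPM) and F3 females (6691 ± 1013 against 5253 ± 2253 CPM), and lower in F1 sGC females (6012 ± 1630 against 9862 ± 4816 CPM). Their part in the GABRA2 differences was not tested. GABRG1 deviated opposite to the striatal sum (r = -0.45, permutation p = 0.0031, FDR = 0.0372; rho = -0.52, FDR = 0.0221), which reached r = -0.93 in F1 females and was absent in F3 females (r = 0.24), and r was -0.33 without the 2 farthest animals. GABRA4 deviated with the striatal sum (r = 0.65, permutation p = 0.00594, FDR = 0.0475; rho = 0.51, FDR = 0.110), within F1 (r = 0.68) and F3 females (r = 0.84) and not within F1 males (r = -0.09).

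**Figure D5:**
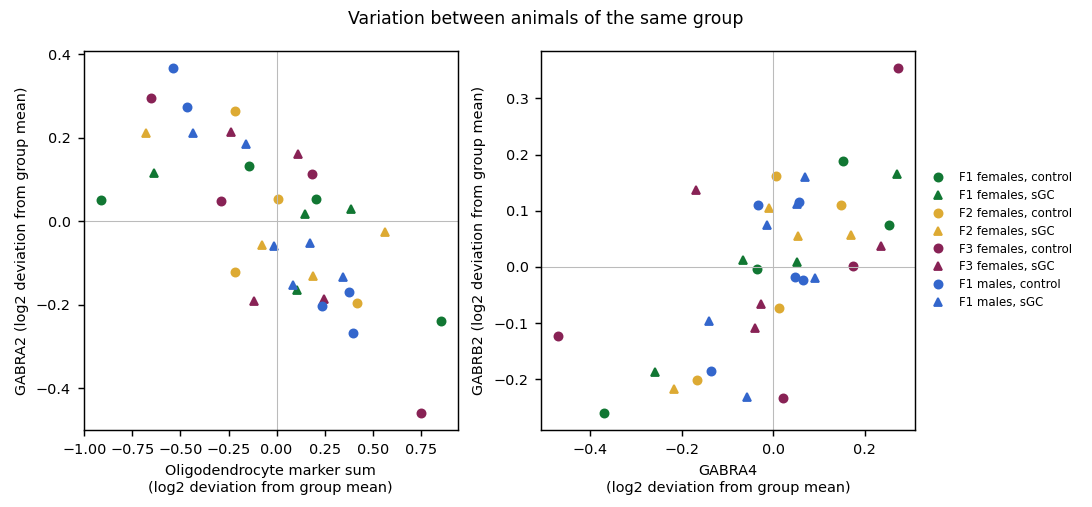
Deviation of each animal from its group mean on the log2 scale, for GABRA2 against the summed oligodendrocyte markers (left) and for GABRB2 against GABRA4 (right), with a colour per table, circles for controls and triangles for sGC animals (35 animals). GABRA2 falls as the oligodendrocyte sum rises (r = -0.72), and GABRB2 rises with GABRA4 (r = 0.66).

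By the same deviations, the 3 genes most like each subunit gene were picked from the 10725 genes tested in all 4 tables, as a description over 35 animals that share their libraries. GABRA2 went with ARL15 (r = 0.89), MOB1B (0.83) and STXBP6 (0.82). For GABRA4 they were CACNA2D3 (0.87), an auxiliary calcium channel subunit, ACTR3B (0.87) and KCNIP2 (0.86), a potassium channel interacting protein. GABRA5 was followed by ADAMTSL1 (0.89), GLRA2 (0.88), which encodes a glycine receptor subunit, and MMP16 (0.87). GABRB2 had TCAF1 (0.87), ZDHHC21 (0.85) and SEL1L (0.84). GABRG1 was most like PDGFRA (0.87), the marker of oligodendrocyte precursor cells, then RASSF2 (0.81) and CALCRL (0.77). GABRA3 had the weakest nearest genes, WDR7 (0.75), CLIP3 (0.71) and CHD5 (0.70).

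In the RefSeq annotation of the guinea pig, subunit genes stand in groups. GABRG1 and GABRA2 are adjacent, with 1 protein-coding gene between GABRA2 and GABRA4, and GABRA4 is next to GABRB1. GABRB2 is followed by GABRA6, and GABRG3 and GABRA5 are adjacent, in each case with no coding gene between. GABRA3 lies beside GABRQ. The genes of the first group, GABRG1, GABRA2 and GABRA4, had negative log2 differences in all 4 tables, except that some turned positive with animals left out. GABRA4 did so in F1 females without control animal 1, without sGC animal 2 and without control animals 1 and 4, and GABRG1 in F2 females without control animal 3. Differences of GABRB2 were positive in F1 and F3 females and negative in F2 females and F1 males.

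Outside the list, GABRD, whose delta subunit serves receptors away from synapses, and GABRG3, which encodes the gamma3 subunit, passed in none of the 4 tables.

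Genes that anchor and move these receptors differed by table. In F1 females 3 of 15 tested rose (9.21% of all genes did), KIF5A (0.45, FDR = 0.0164), a kinesin motor that carries receptors, ARFGEF2 (0.32, FDR = 0.0242) and LHFPL4 (0.23, FDR = 0.0225), which couples receptors to neuroligin-2 at the synapse. GPHN, encoding the scaffold gephyrin, had a difference of -0.17 (FDR = 0.0887). In F1 males RDX, which anchors alpha5 receptors, rose (0.11, FDR = 0.0407), as 5.74% of all genes did. SLITRK3, a synapse organizer, fell there (-0.36, FDR = 0.0250), as 3.48% of all genes did. The median was 0.13 in F1 females and -0.08 in F1 males. None of 16 passed in F2 or F3 females.

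Among genes for making, packing and clearing GABA, 3 of 8 fell and none rose in F1 females (7.33% of all genes fell). These were SLC32A1, the vesicular GABA transporter (-0.89, FDR = 0.0254), GAD2, a GABA-synthesizing enzyme (-0.62, FDR = 0.00721), and ABAT, which breaks GABA down (-0.47, FDR = 0.0160). GAD2 was at 299, 220.4, 269 and 304 CPM in F1 control females and at 171, 192, 179 and 170.2 CPM in sGC females. These groups did not overlap, as for 23.2% of all genes in F1 females in either direction. Striatal neurons also make GABA, and the summed striatal markers of those controls, in the same order, were 2947, 670, 1028 and 2741 CPM. The part of striatal tissue in the GAD2 difference was not tested. GAD2 differed by -0.21 (FDR = 0.121) in F2 females, -0.49 (FDR = 0.0565) in F3 females and -0.19 (FDR = 0.362) in F1 males. Striatal sums were lower on average in F3 sGC females too (416 ± 149 against 755 ± 349 CPM), and their part was not tested. In F1 males GAD1, the other GABA-synthesizing enzyme, fell (-0.22, FDR = 0.0293), 1 of 8, where 3.48% of all genes fell. The median of this list was -0.29, -0.08, -0.25 and -0.15 in F1, F2 and F3 females and F1 males, and none of its genes passed in F2 or F3 females.

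Chloride transport sets whether an open GABA-A receptor inhibits a neuron. SLC12A5, the extruding transporter KCC2, did not pass in any table (0.13, -0.21, 0.03 and -0.10 in F1, F2 and F3 females and F1 males). SLC12A2, the chloride importer NKCC1, rose in F1 males from a mean of 53.5 to 82.6 CPM (0.63, SE 0.10, FDR = 0.00450). It was 1 of 8 tested, where 5.74% of all genes rose. In F2 females SLC12A2 had a difference of 0.57 (FDR = 0.0579). It is also expressed in oligodendrocytes and other glia, and the oligodendrocyte sums were higher in sGC animals of both tables; their part was not tested. STK39, a kinase that acts on these transporters, rose in F1 females (0.38, FDR = 0.00696), 1 of 8 tested, where 9.21% of all genes rose. No other gene of the 8 on this list passed in any table.

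Of 3 GABA-B receptor genes tested, KCTD8 fell in F1 females (-1.26, FDR = 0.0428), where 7.33% of all genes fell. GABBR1, a subunit of the receptor itself, fell in F1 males (-0.25, FDR = 0.0137), where 3.48% of all genes fell. Of the neurosteroid genes, SRD5A1, which makes the steroids that enhance GABA-A receptors, rose in F1 females (0.33, FDR = 0.0309). This was 1 of 2 tested, where 9.21% of all genes rose, and none of 3 passed in F1 males. Neither list had a gene past the threshold in F2 or F3 females. Of the genes for GABA synthesis and chloride transport, GAD2 had an FDR of 0.0565 in F3 females and SLC12A2 one of 0.0579 in F2 females.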

How the data were processed

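RNA from mPFC punches had been sequenced by the authors from 35 guinea pigs, and whole-number read counts per gene symbol were deposited as 4 tables (F1, F2 and F3 females, F1 males), without normalization. TopHat2 and edgeR are named in the submitters' processing notes. The read counter, the genome build and the annotation are not given in the sources used here. The authors also deposited columns of their own test, namely log2 fold changes and mean log2 CPM, a dispersion and a likelihood ratio score, and p-values with FDRs. None of these columns was used.

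Samples were grouped by generation, sex and treatment as the titles give them. For each table, filterByExpr (minimum count 10, minimum total count 15) chose the genes to test, TMM scaled the libraries, and edgeR's quasi-likelihood test (edgeR 4.0.16 in R 4.3.3) set the sGC group against the control group. FDRs are Benjamini-Hochberg values over all genes tested in the table. The alternatives were the likelihood ratio test that the study had used, DESeq2 (version 1.42.0), other scalings, other filters, a replicate block, a single fit of the 8 groups and leaving out animals. CPM are TMM-normalized within a table. Interactions were fitted to the 4 groups of 2 tables together. Error bars and ± are SDs between animals. Correlations used log2 CPM (prior count 2) less the group mean, with two-sided permutation within groups (Python 3.11.15, numpy 2.4.6). The 15 pairs follow from the 6 genes found. The tests were checked on simulated counts with known changes. No 2 libraries held the same counts. Symbols of subunit genes were matched to RefSeq (assembly mCavPor4.1) for their neighbours only, and neither sequences nor transcript lengths were used.

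The genes and lists were chosen with earlier results of these data known. The genes named are the subunit genes, GAD2, up to 2 of the largest rises and falls with an FDR under 0.05 in each pathway list and table, the 3 genes most like each subunit gene, and marker genes. GPHN, SLC12A5, SLC17A7 and SLC12A2 in F2 females were added after their values were seen. Some genes of these lists are not reported here.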

Additional observations from a re-analysis of the deposited data

Results flagged for a closer look

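In F1 control animal 1, GABRA3 was at 274 CPM against 236 to 237 CPM in the other 3 F1 control females, a gap of 0.952 of the group's range. GABRG1 in F1 sGC female 4 was at 3.15 CPM against 4.49 to 4.64 CPM in the other 3, a gap of 0.901 of the range. These were 2 of 48 groups examined for an animal standing apart, and chance alone gives about 1 in 20.

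The sGC effect differed between F1 females and F1 males for 3 of 6 subunit genes, where 31.7% of all genes passed. The interactions (males minus females, log2 scale, edgeR's quasi-likelihood test) were -0.94 for GABRA3 (FDR = 7.47e-05), -0.71 for GABRB2 (FDR = 0.000730) and -0.76 for GABRA5 (FDR = 0.0247). That of GABRA5 passed in 18 of 19 fits that left out 1 animal, with a highest FDR of 0.0580. Between F1 and F2 females (F2 minus F1) the sGC effect differed for 2, where 13.8% of all genes passed. The interactions were -1.01 for GABRA3 (FDR = 0.000730) and -0.64 for GABRB2 (FDR = 0.0153). Sex and generation cannot be told apart from table here. Both sets use the same F1 females, whose controls differed from the sGC animals in striatal markers; the part of these markers was not tested.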

How the results depend on the processing

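Leaving out 1 animal at a time gave 1 to 3 called subunit genes in F1 females, 0 to 1 in F2 females, 0 to 3 in F3 females and 1 to 4 in F1 males, and 2 to 3, 2, 0 and 0 to 1 for the interactions of F1 females with F1 males, F1 with F2, F1 with F3 and F2 with F3 females. With the likelihood ratio test and with DESeq2 the counts were 3 in F1 females, 2 in F2 females, 1 in F3 females, 5 in F1 males and 1 for F2 with F3 females. For F2 with F3 females those tests called 0.835% and 1.13% of all genes. RLE and upper quartile normalization also gave 1 for F2 with F3 females, each with 0.0359% of all genes called. Upper quartile normalization gave 3 in F1 females. A single fit of all 8 groups gave 3 in F1 females, 1 in F3 females and 0 in F1 males. It called 30.4%, 3.62% and 7% of all genes there. Without F1 control females 1 and 4, an alternative chosen after seeing the data, F1 with F3 females gave 1. The cause of these changes was not tested. The likelihood ratio test does not allow for the uncertainty of the dispersion, and the part of this in the counts was not tested either. Same-numbered control and sGC animals did not deviate together in every pair of any table, so the numbers were not taken as pairs. A replicate block gave 1 for GABRA3 in F3 females and 1 for F2 with F3 females, and took the GABRA5 interaction of F1 females with F1 males to an FDR of 0.0526; it moved the count of all genes called in F1 females from 1864 to 1080 and in F3 females from 153 to 67.

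The sign turned for GABRA4 in F1 females without controls 1 and 4 (0.19), and for the F2 to F3 interaction of GABRA2 with RLE (0.0028) and DESeq2 (0.0033). With 1 animal left out, the sign turned within ranges of -0.16 to 0.059 for GABRA4 in F1 females, -0.092 to 0.11 for GABRA5 and -0.26 to 0.10 for GABRG1 in F2 females, -0.12 to 0.10 for GABRA2 and -0.26 to 0.087 for GABRG1 in F2 with F3 females, and -0.33 to 0.12 for GABRA5 in F1 with F3 females. Of the other alternatives' values, 350 stayed on the same side of the threshold with the same sign. From the quasi-likelihood to the likelihood ratio test, counts of all genes called went from 1864 to 2100, 31 to 534, 153 to 616 and 1062 to 1410 in F1, F2 and F3 females and F1 males. With 1 animal left out, no gene at all was called in F2 females in 5 of 8 fits. Depth limits GABRG1 most, at 45 to 198 reads a library.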
